A study of Mus musculus with 4 samples.

Results

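The material described here is the 6 h array of a mouse study of contextual fear conditioning under MK-801, which is 1 of 4 arrays in the series, chosen by its title. Each array carried 2 dyes and compared RNA of the CA1 field of the hippocampus, with MK in Cyanine-3 (green) and MK C+S in Cyanine-5 (red). MK stands for young male C57BL/6J mice injected with MK-801, which the labels call controls and for which they mention no conditioning. MK C+S stands for young male C57BL/6J mice injected with MK-801 1 h before conditioning, which was 2 min in a new context and then a foot shock of 1 s at 0.5 mA, given 3 times. They went back to the home cage 1 min after the last shock, and their RNA was taken 6 h after it. The array title gives 6 h for MK as well, for which no shock is mentioned to count from. Animals of both groups had thus received the drug, at 300 micrograms per g body weight as the labels write it, which is far above doses in common use. The sources used here give neither the number of animals behind the RNA nor any pooling. There was 1 array, with no replicate and no dye swap, so no value at 6 h carries an error, no p-value is given, and dye and conditioning cannot be told apart.

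MK-801 blocks the NMDA receptor, the glutamate receptor whose calcium entry starts lasting change at synapses of CA1 pyramidal neurons. Learning of a context normally sets off a wave of immediate early genes in these neurons within minutes, followed over hours by genes of synapse, signalling and protein synthesis. In the design compared here the receptor was blocked on both sides of the ratio, so the ratio sets conditioned animals against controls under the block.

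The deposited table gave 1 log ratio per spot. Positive values likely stand for a higher signal of MK C+S (red over green is the common order), but neither direction nor log base is stated, and folds here assume base 10. An exact 0 was read as no measurement. That left 14650 spots of 16281, and 10102 genes had at least 1 measured spot that carried exactly 1 symbol. The gene value was the mean of its spots after the median of the array was subtracted. A ratio holds no level, so the labelled tissue could not be checked against the abundance of CA1 markers.

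Log ratios of genes at 6 h were centred near 0 and widely spread. The median gene stood at -0.0062, the middle 50% of genes lay between -0.14 and 0.13, and 4911 of 10102 genes were above 0. In all, 2211 genes lay at least 2-fold (0.301 log10 units) from 0, 21.9% of those measured. Of these, 1028 genes (10.2% of all measured) were positive and 1183 (11.7%) negative. The share past 2-fold was 23.8% among genes on 1 spot and 15.8% among genes whose value was the mean of 2 spots. The lists below differ in how many such means they hold. The far tails were uneven, as 86 genes lay at or below -1.0, a 10-fold difference, and 7 genes at or above 1.0.

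The spread of the 6 h array was larger in size than that of the other arrays, without a test of the difference. The median absolute deviation of spots was 0.146 at 6 h (95% interval of the median from binomial order statistics, 0.143 to 0.149), and over the arrays of 1, 2 and 4 h it was 0.103, 0.103 and 0.10. That interval treats the spots of 1 array as independent and says nothing of variation between arrays. The share of genes past 2-fold was 8.47%, 6.58% and 7.07% at 1, 2 and 4 h.

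**Figure D1:**
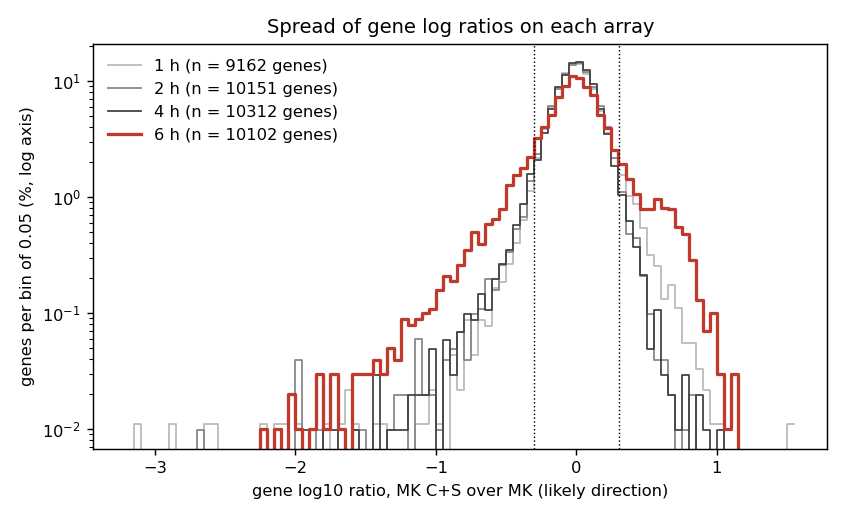
Distribution of gene log10 ratios on each of the 4 arrays, in bins of 0.05, with the share of genes per bin on a log axis and dotted lines at 2-fold. At 6 h 21.9% of genes lie past 2-fold, against 6.58 to 8.47% on the other arrays.

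The 10 genes with the highest values at 6 h rested on 1 spot each. Twistnb, a subunit gene of RNA polymerase I, stood at 1.14, the allantoicase gene Allc at 1.13, the ferlin family gene Fer1l4 at 1.13 and the histone gene H3c1 at 1.06. Ly6m followed at 1.04, the galactosyltransferase gene B3galt5 at 1.02, Fgf22, a growth factor known for its part in building presynaptic terminals, at 1.01, and the kainate receptor subunit gene Grik3 at 1.00. Olfr894, an olfactory receptor gene, stood at 0.99 and the sodium and glucose cotransporter gene Slc5a4a at 0.97. Of these 10 genes, 9 had no measured value at 1 h, so most of them could not be followed over all times. A running median over 51 neighbouring spots, once removed, left B3galt5 at 0.80 and Slc5a4a at 0.77.

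The 10 lowest genes also rested on 1 spot each, and 7 of them had no value at 4 h. The ephrin receptor gene Epha3 stood at -2.23, a 170-fold difference if the logs are base 10. Its values at 1, 2 and 4 h were 0.036, -0.084 and -0.068, all close to 0. The neuronal splicing factor gene Nova1 stood at -2.12 after 0.0036, -0.33 and -0.54, so its values lay lower at each later time. The nuclear receptor gene Rora stood at -2.04 and at -1.07 at 1 h, with no value between. Prrx1, a homeobox gene of mesenchyme, stood at -2.01, the B cell kinase gene Btk at -2.0 and the integrin ligand gene Edil3 at -1.88. Map3k7, which encodes the kinase TAK1, stood at -1.85, close to its -1.79 and -1.83 at 1 and 2 h. The tight junction gene Cldn2 stood at -1.82, the homeobox gene Hoxc4 at -1.80 and the epidermal gene Lce1a2 at -1.79. Removing the running median over spots brought Nova1 to -1.78, Rora to -1.80, Edil3 to -1.66, Hoxc4 to -1.22 and Lce1a2 to -1.56.

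Immediate early genes, the first transcripts that active neurons make, were split evenly around 0. Of 36 measured, 18 were positive and 18 negative, with a median of -4.7e-05 and 2 genes past 2-fold (5.56%, against 21.9% of all genes). The zinc finger transcription factor gene Egr2 was one of these, at 0.86 on 1 spot, after -0.19, 0.44 and 0.17 at 1, 2 and 4 h. The other was Klf6, also a zinc finger factor gene, at -0.44. The 6 h value of Egr2 was thus its highest of the series, while its relatives stood elsewhere, with Egr1 at -0.29 and Egr4 at -0.014. Arc, which encodes a dendritic protein needed for lasting synaptic change, stood at 0.18 and Junb at 0.025. The AP-1 gene Fos gave -0.0046 and 0.012 on its 2 spots, and the nuclear receptor gene Nr4a1 stood at 0.030, or 0.40 once a running median over 51 neighbouring spots was removed. Fos is therefore one of the genes whose spots lay close together, both near 0.

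Subunits of the receptor that MK-801 blocks and their postsynaptic partners had gene values that lay close together, but many were means of differing spots. In 12 of these genes the value was a mean of 2 spots, which differed by a median of 0.193 log10 units. The 2 spots had the same sign in 5 of the 12, and the part of averaging in the narrow spread was not tested. Of 21 measured genes of the NMDA receptor and postsynaptic density, 7 were positive and 14 negative, with a median of -0.035. Their median absolute deviation was 0.046 (0.135 over all genes), and 1 gene passed 2-fold (4.76%, against 21.9% of all genes). That gene was Grin2d, an NMDA receptor subunit gene, at 0.60 on 1 spot. Actn2, a cytoskeletal anchor gene, was the lowest at -0.19, the mean of spots at 0.29 and -0.66. Receptors of the AMPA, kainate and metabotropic types had a median of -0.16, with 3 of 14 positive and 4 past 2-fold (28.6%). Among them Gria3, an AMPA receptor subunit gene, stood at -0.43 after -0.12, -0.25 and -0.21 at 1, 2 and 4 h, negative at each time. Genes of the GABA system and of interneurons had a median of 0.039, with 15 of 25 positive and 7 past 2-fold (28.0%). Their ends were the receptor subunit gene Gabra5 at 0.54 (0.36 with the running median removed) and the interneuron transcription factor gene Lhx6 at -0.42.

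Signalling and excitability genes gave small medians as well. Past 2-fold were 5.0% of kinase, phosphatase and CREB pathway genes and 14.3% of neurotrophin and receptor genes, against 21.9% of all genes. For synaptic vesicle and SNARE genes the share was 26.2% and for voltage-gated channels 22.2%, near that of all genes. Means of 2 spots made up 20 of 40 kinase list, 7 of 14 neurotrophin, 11 of 42 synaptic vesicle and 24 of 45 channel genes. Over all genes they were 2191 of 10102, and the part of averaging in these shares was not tested. Kinases, phosphatases and genes of the CREB pathway had a median of -0.017, with 2 of 40 past 2-fold. These were the protein kinase C gene Prkce at 0.47, from spots at 0.75 and 0.19, and the kinase gene Akt2 at -0.84, from spots at 0.14 and -1.82. Both values thus leaned on 1 of 2 spots. Neurotrophins and their receptors had a median of -0.0088 with 2 of 14 past 2-fold, and the BDNF receptor gene Ntrk2 stood at -0.67. Ntrk2 was at 0.39, -0.37 and -0.31 at 1, 2 and 4 h, so its sign was positive at 1 h only. Synaptic vesicle and SNARE genes had a median of 0.0028 with 11 of 42 past 2-fold, between the membrane fusion gene Stx2 at 0.59 and the complexin gene Cplx2 at -0.52 (-0.33 with the running median removed). Voltage-gated channels had a median of 0.0092 with 10 of 45 past 2-fold. Cacna1b, the pore gene of the N-type calcium channel, stood at -1.08 and Kcnc2, a fast potassium channel gene, at 0.53.

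Guidance and regulatory groups held some of the lowest single values. The share past 2-fold was 20.8% for axon guidance genes, near the 21.9% of all genes. It was 14.7% for RNA-binding and splicing factors, 8.33% for chromatin modifiers and 33.3% for circadian clock genes. Of 48 axon guidance genes, 19 were positive and 10 passed 2-fold, 2 of them positive (Sema5b at 0.49 was the highest) and 8 negative, with a list median of -0.035. Neuronal RNA-binding and splicing factors had a median of -0.067, 11 of 34 positive and 5 past 2-fold, from Nova1 to Srsf1 at 0.30 (0.25 with the running median removed). Chromatin modifiers had a median of -0.050 with 3 of 36 past 2-fold, among them the DNA methyltransferase gene Dnmt3a at -0.43 and the NuRD complex gene Mbd3 at 0.38 (0.29 with the running median removed). Circadian clock genes had 5 of 18 positive, a median of -0.090 and 6 past 2-fold, with Timeless at 0.84 at the upper end.

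Lists of stress responses, which the handling and shock of conditioning can engage, had medians near 0, as did many other lists on this array. The share past 2-fold was 25% for glucocorticoid response and 18.5% for amino-acid and unfolded-protein stress, on either side of the 21.9% of all genes. For heat shock proteins and chaperones it was lower, at 8.11%, without a test of the difference. Glucocorticoid response genes had a median of -0.017 with 5 of 20 past 2-fold, 3 positive and 2 negative. The metallothionein gene Mt2 stood at 0.39 (0.63 with the running median removed) and Fkbp5, a glucocorticoid target that restrains its receptor, at -0.38. Genes of amino-acid and unfolded-protein stress had a median of -0.028 with 5 of 27 past 2-fold. Chac1, a glutathione-degrading enzyme gene, stood at 0.97 after values of -0.093, 0.13 and 0.029, while Sesn2, of the same list, stood at -0.46. Among 37 genes of heat shock proteins and chaperones the median was -0.028 and 3 passed 2-fold, all 3 negative, with the heat shock factor gene Hsf2 at -0.43 and the small chaperone gene Cryab at 0.22 (0.39 and past 2-fold with the running median removed).

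Genes of protein synthesis and energy supply differed in spread from list to list. Their shares past 2-fold, from 0 to 12.5%, were all under the 21.9% of all genes. Cytosolic ribosomal proteins and their close paralogs had a median of 0.073 and a median absolute deviation of 0.070 (0.135 over all genes), with 41 of 57 positive and 4 past 2-fold. Their ends were Rps21 at 0.50 and Rps20 at -0.79, which had been at 0.070, -0.42 and -0.54 before. In the respiratory chain and ATP synthase list, which holds the enzymes of oxidative phosphorylation, 0 of 52 genes passed 2-fold and the median was 0.051, with values from -0.25 (Ndufb4) to 0.25 (Atp5l, or 0.31 and past 2-fold without the running median). Proteasome genes had a median of 0.040 with 2 of 33 past 2-fold, from Psmd13 at -0.28 to the activator gene Psme1 at 0.80. Translation factors had a median of 0.0076 with 4 of 32 past 2-fold, all 4 negative. The lowest of these was Eif4ebp2, a brake on cap-dependent translation, at -1.36, and the list's highest was Eif4a1 at 0.24. Glycolysis genes had a median of -0.0058 and a wider median absolute deviation of 0.173, with 2 of 20 past 2-fold, the neuronal glucose transporter gene Slc2a3 at -0.78 (spots at -0.25 and -1.31) and the lactate dehydrogenase gene Ldhc at 0.35. Cholesterol synthesis genes had a median of 0.068 with 10 of 14 positive and 1 past 2-fold, Pmvk at 0.58, and the lowest was Tm7sf2 at -0.074.

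Structural genes gave medians near 0, and so did cytokines and chemokines. Past 2-fold were 15.4% of cytoskeleton genes and 20.6% of cytokines and chemokines, against 21.9% of all genes. Cytoskeleton genes had a median of -0.035 with 6 of 39 past 2-fold, between Dpysl3, a growth cone protein gene, at 0.71 and the beta actin gene Actb at -0.41, which was -0.16 and within 2-fold with the running median removed. Extracellular matrix, integrin and cadherin genes had a median of 0.0045 with 19 of 67 past 2-fold (28.4%), 13 of them negative. The integrin gene Itgav stood at 0.79 and the matrix gene Fbln2 at -1.23. Cytokines and chemokines had a median of -0.0023 with 13 of 63 past 2-fold, from the lymphotoxin gene Ltb at -0.48 to Il17a at 0.80.

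Of the markers of hippocampal neurons, read against the 21.9% of all genes past 2-fold, those of CA1 and CA3 had smaller shares (1 of 10 and 2 of 13) and those of the dentate gyrus a like one (2 of 9), over few genes each and without a test. CA1 pyramidal markers had a median of -0.15, with 4 of 10 positive and 1 past 2-fold. That 1 was Hpca, which encodes the calcium sensor hippocalcin, at -0.34. Its 2 spots gave -0.40 and -0.49 at 1 h, -0.054 and -0.20 at 2 h, 0.34 and 0.45 at 4 h, and -0.23 and -0.45 at 6 h, so they had the same sign on every array. With the running median over neighbouring spots removed Hpca stood at -0.23, within 2-fold. Wfs1, which marks CA1 pyramidal cells, stood at 0.16. CA3 and CA2 markers had a median of -0.053 with 2 of 13 past 2-fold, from Plagl1 at -1.13 to Coch at 0.23. Dentate granule cell markers had a median of 0.018 with 2 of 9 past 2-fold, and the granule cell transcription factor gene Prox1 stood at 0.41 and Sema5a, the lowest, at -0.074.

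Markers of other cell types had shares past 2-fold on both sides of the 21.9% of all genes, from 4.55% for astrocytes to 30.0% for blood cells. Of 22 astrocyte markers 17 were positive, the median was 0.076, and 1 passed 2-fold. The intermediate filament gene Gfap was the highest at 0.28 (0.33 and past 2-fold with the running median removed) and Atp1b2, a sodium pump subunit gene, the lowest at -0.35. Of 28 microglia and macrophage markers 18 were positive and 5 passed 2-fold (17.9%), around a median of 0.091, with the transcription factor gene Spi1 at 0.44 and the antibody receptor gene Fcgr2b at -0.54. Myelin and oligodendrocyte markers had a median of 0.022 with 1 of 16 past 2-fold, the myelin gene Mog at -0.34 from spots at 0.016, -0.21 and -0.82 (their median is within 2-fold), and Trf was the highest at 0.24. With the running median removed Trf stood at 0.0012. Endothelial and mural markers had a median of 0.022 with 7 of 31 past 2-fold (22.6%), from the VEGF receptor gene Kdr at -0.61 to the pericyte receptor gene Pdgfrb at 0.73. Choroid plexus and ependyma markers had a median of -0.11 with 6 of 14 positive and 1 past 2-fold, the channel gene Trpv4 at 0.35, which was 0.24 and within 2-fold with the running median removed. Their lowest, Sostdc1, stood at -0.29 here and at 0.66 at 1 h. Blood cell markers had a median of 0.092 with 6 of 20 past 2-fold, from the neutrophil granule gene Ngp at -1.33 to the B cell gene Ms4a1 at 0.56. In bulk tissue, fewer cells of a type and less RNA per cell cannot be told apart.

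The groups with the largest share past 2-fold were those known from tissues other than brain. Of 100 measured olfactory and vomeronasal receptor genes, which sensory neurons of the nose express, 50 passed 2-fold, 22 positive and 28 negative. Their median was -0.099 and their median absolute deviation 0.281, against 0.135 over all genes. Of 82 keratin and epidermal genes, 32 passed (39.0%), 11 positive and 21 negative, from Lce1a2 to Krtap5-1 at 0.85. Of 29 immunoglobulin and T-cell receptor segments, which lymphocytes rearrange, 11 passed (37.9%), 4 positive and 7 negative, from -1.06 to Ighv7-1 at 0.95. The lowest olfactory receptor gene was Olfr138 at -1.18. At 23 of the 36 lists the share past 2-fold was under the 21.9% of all genes.

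**Figure D2:**
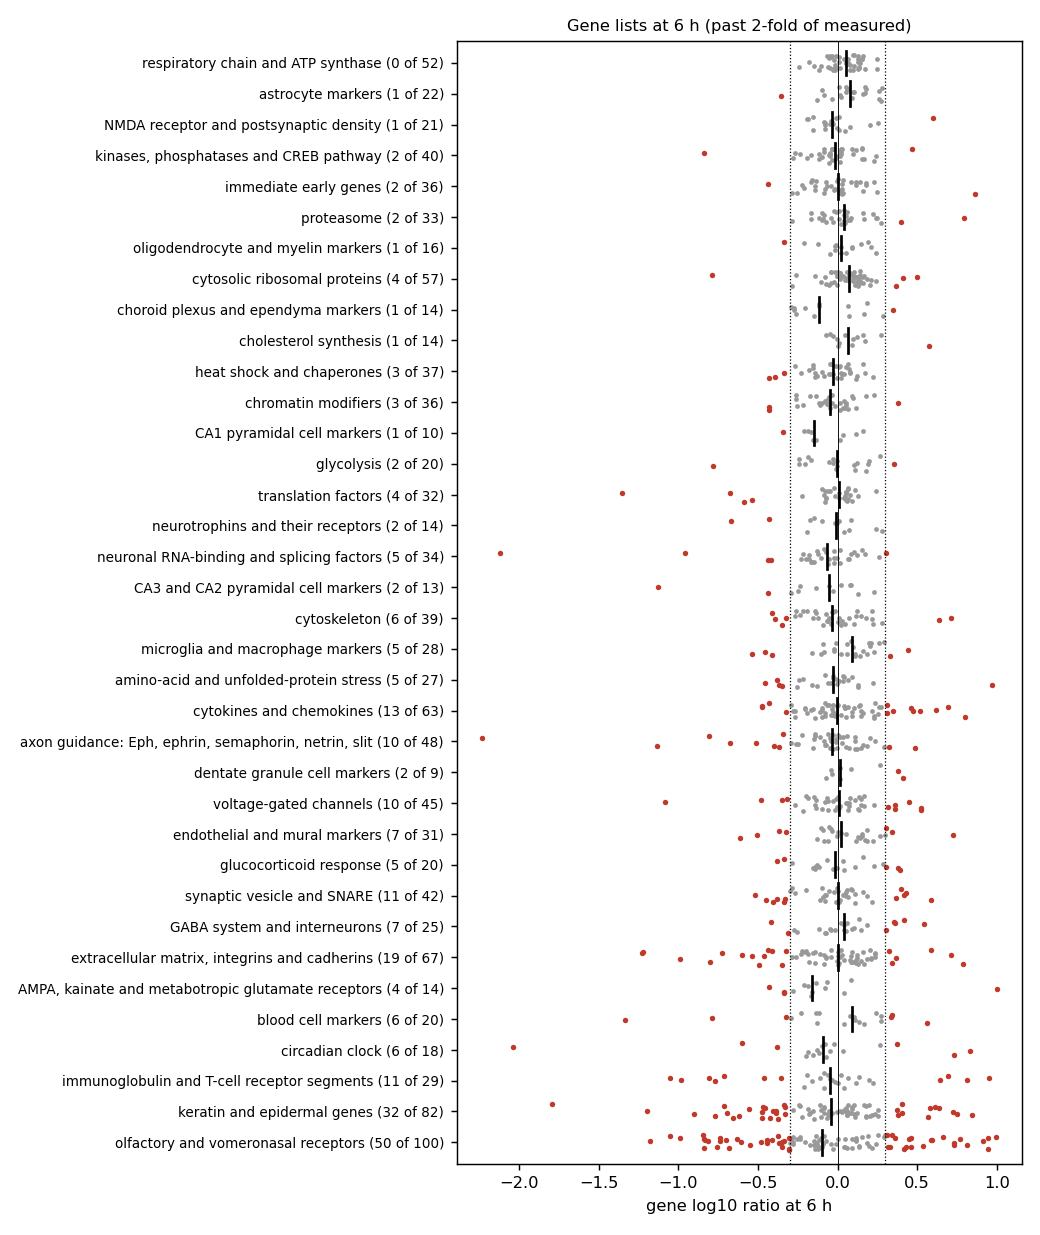
Gene log10 ratios at 6 h for the members of 36 lists, 1 point per gene, red past 2-fold (dotted lines), with a bar at the list median. Lists are ordered by the share past 2-fold, from 0 of 52 in the respiratory chain to 50 of 100 in olfactory and vomeronasal receptors.

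How often a gene was measured went together with its spread at 6 h. Among 8553 genes with a value on all 4 arrays, 17.9% passed 2-fold, 525 positive and 1008 negative. Among 1367 genes with values on 3 arrays including 6 h, 43.0% passed, 453 positive and 135 negative. Among 161 genes with values on 2 arrays the share was 48.4%, and among 21 genes measured at 6 h alone it was 57.1%. The sign balance thus differed between the first of these classes, mostly negative, and the second, mostly positive. Signal intensities were not used here, and the part of weak signal in this pattern was not tested.

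Agreement between spots of a gene is the internal check that the array offers, since 76.2% of measured genes rested on 1 spot. For 2191 genes with exactly 2 measured spots, the 2 spots had the same sign in 1091, a share of 49.8% (exact binomial 95% interval, counting error only, 47.7 to 51.9%), and opposite signs in 1100. The median absolute difference between the 2 spots was 0.244 log10 units, and 933 genes (42.6%) had spots that differed by 2-fold or more. At the other times the same-sign share was 53.3%, 51.4% and 54.3% and the median difference 0.140, 0.143 and 0.131 at 1, 2 and 4 h. Across genes, Spearman's correlation of the 2 spots at 6 h was -0.049. In 360 of these genes both spots carried the same accession, and there 184 had the same sign (51.1%, 45.8 to 56.4%). The sources used here do not say whether spots of 1 accession hold the same probe.

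Pairs of large values were also split in sign. Both spots passed 2-fold in 186 genes, in the same direction for 77 (41.4%, exact binomial 95% interval 34.2 to 48.8%) and in opposite directions for 109. In another 804 genes only 1 of the 2 spots passed.

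**Figure D3:**
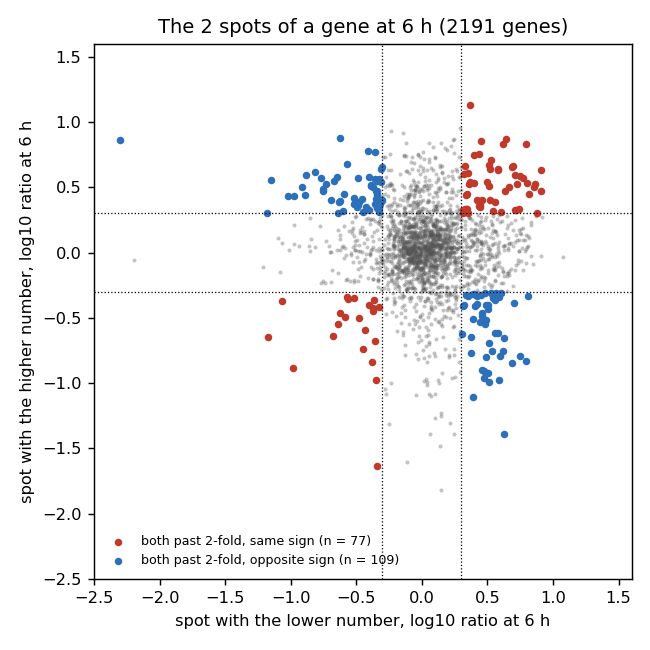
Log10 ratios at 6 h of the 2 spots of 2191 genes, the spot with the lower number on the x axis and the other on the y axis, with dotted lines at 2-fold. The 77 genes in red have both spots past 2-fold the same way and the 109 in blue the opposite way, and no diagonal trend is visible (Spearman -0.049).

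The widest disagreement was found for Pgpep1, a peptidase gene, with spots at -2.30 and 0.87. The first of its spots had been at -2.12 at 1 h and the second at 0.029 and 0.055 at 2 and 4 h, so the mean of -0.72 describes neither. Rit2, a neuronal small GTPase gene, had spots at -0.0083, -2.35, -0.034 and 0.058, 3 near 0 and 1 far below. That low spot had been at 0.21, -0.30 and -0.18 at the earlier times. Plagl1 was at -2.19 and -0.058, the muscle tropomyosin gene Tpm2 at 0.62 and -1.39, and the guanylate cyclase gene Gucy1b1 at -1.33, 0.0099 and 0.47. Akt2, given above, also belonged here, and so did Igha (0.32, 0.60 and -1.11), the mitotic kinase gene Bub1 (-1.15 and 0.55), the cohesin gene Stag3 (0.24 and -1.39) and Scgb1b2 (0.80 and -0.83). In each of these 10 genes the mean lay away from at least 1 of the spots by more than 2-fold. Their selection for the widest ranges between spots made that certain.

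Gapdh, a glycolytic enzyme gene, shows the other end and was picked after its values were seen because the array carries 25 spots of it. Of 24 measured at 6 h, 22 were positive, and the mean was 0.20 ± 0.15 (SD over spots of 1 array, not over animals), from -0.15 to 0.70. In all, 17 of the 24 lay between 0.15 and 0.3. At 1, 2 and 4 h the medians over its spots were -0.081, 0.22 and 0.025. Repeated spots of this transcript therefore mostly agreed in sign on the 6 h array. Of its 25 spots, 24 have numbers between 1118 and 2865, and over all spots the median was 0.11 in numbers 1201 to 1800 and 0.10 in 2401 to 3000. The part of position in the Gapdh value was not tested.

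**Figure D4:**
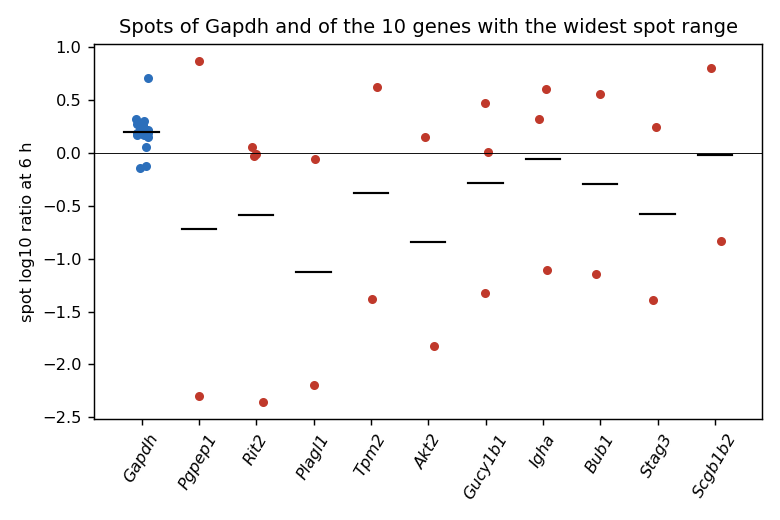
Spot log10 ratios at 6 h of Gapdh (blue, 24 measured spots) and of the 10 genes with the widest range between spots (red), with a bar at the mean. Most Gapdh spots lie between 0.15 and 0.3, while Pgpep1 spans -2.30 to 0.87.

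Among the 2402 genes with 2 or more measured spots, 77 genes (3.21%) had every spot past 2-fold in the same direction, 55 positive and 22 negative. Each of the 77 had 2 spots. The highest was Cnga2, a channel gene of olfactory neurons, with spots at 0.80 and 0.84. The interleukin-13 decoy receptor gene Il13ra2 had spots at 0.91 and 0.63, Fgf16 at 0.64 and 0.87, and Kbtbd11 at 0.37 and 1.13. The leukocyte surface gene Spn (0.62 and 0.84), the phosphate hormone gene Fgf23 (0.87 and 0.53) and the transcriptional regulator gene Tead2 (0.91 and 0.47) followed. So did the retinoid receptor gene Rxra (0.70 and 0.66), the receptor gene of thyrotropin-releasing hormone, Trhr (0.86 and 0.50), and the adaptor gene Gab2 (0.68 and 0.66). Several of these, such as Cnga2, Fgf23 and Spn, are best known outside the hippocampus. Within the lists, the cytokine genes Il2 (0.32 and 0.60) and Il9 (0.53 and 0.71) belonged to this class. They were 2 of 43 cytokine and chemokine genes with 2 measured spots, of which 16 had spots of the same sign.

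The negative genes of this class were led by Timp1, a metalloproteinase inhibitor gene, with spots at -0.34 and -1.64. Apoc4, a liver apolipoprotein gene, was at -0.98 and -0.88, and the neutrophil protease gene Prtn3 at -1.18 and -0.65 (a mean of -0.91, or -0.72 with the running median removed). They were followed by 4930519G04Rik (-1.07 and -0.37), the organic anion transporter gene Slco1a1 (-0.35 and -0.98), Cmss1 (-0.68 and -0.64) and the lipid phosphatase gene Inppl1 (-0.38 and -0.84). The last of the 10 lowest were Pdzd9 (-0.64 and -0.55), the coregulator gene Cited1 (-0.45 and -0.74) and the engulfment adaptor gene Gulp1 (-0.62 and -0.46). Of genes in the marker lists, Fcgr2b belonged here too, with -0.59 and -0.49. It was 1 of 10 microglia and macrophage markers with 2 measured spots.

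At 1, 2 and 4 h, 33 of 35, 52 of 55 and 51 of 55 measured positive genes lay within 2-fold (94.3, 94.5 and 92.7%), and so did 19, 17 and 18 of the 22 negative genes (86.4, 77.3 and 81.8%). Over all genes the shares were 91.5, 93.4 and 92.9%, so the positive genes were close to them and the negative genes lower, without a test of the difference. For the 55 positive genes the medians at 1, 2 and 4 h were -0.12 (over 35 measured), -0.036 and 0.061, and 0, 0 and 3 of them passed 2-fold in the positive direction. For the 22 negative genes the medians were 0.024, -0.15 and -0.099 and 2, 5 and 3 passed in the negative direction. The genes were selected by their 6 h values, and among genes with both of 2 spots past 2-fold, 77 agreed in direction and 109 did not.

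**Figure D5:**
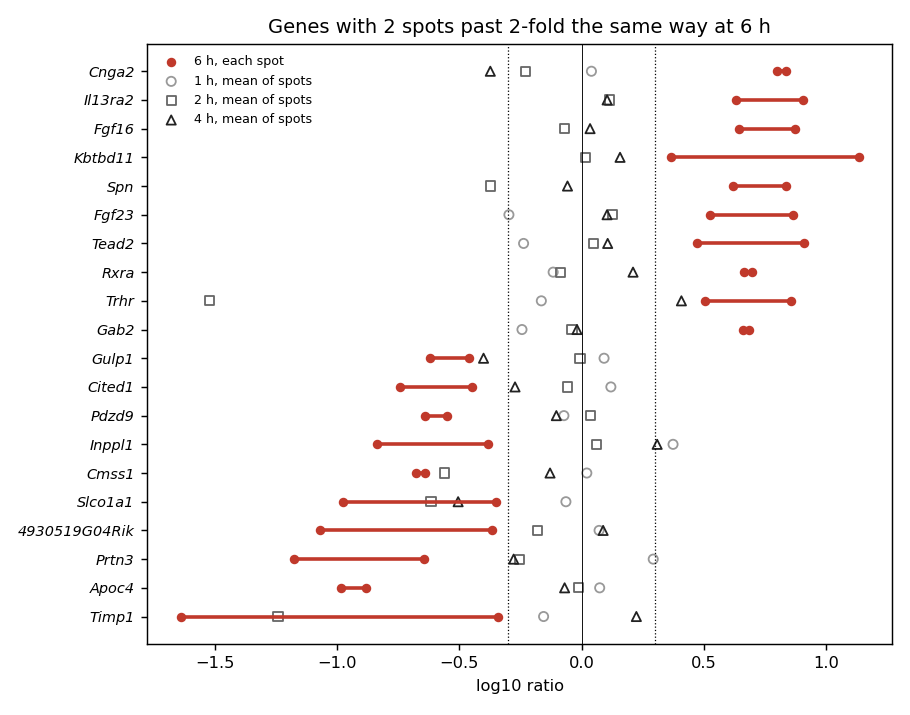
Log10 ratios of the 10 highest and 10 lowest genes with 2 spots past 2-fold the same way at 6 h (red, each spot), with the mean of their spots at 1, 2 and 4 h (open symbols) and dotted lines at 2-fold. The 6 h spots were selected to lie outside these lines, and most open symbols lie inside, with Trhr (-1.52) and Timp1 (-1.24) at 2 h the farthest outside.

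The same spots on other arrays gave correlations that were highest in value with 4 h. Across spots, Spearman's correlation of the 6 h array was 0.30 with 4 h (14314 spots), 0.151 with 2 h (14111) and -0.038 with 1 h (11965). The arrays share the array design, the annotation and the dye orientation, and spots are not independent replicates. Of 314 genes past 2-fold at both 6 and 4 h, 279 had the same sign. The count was 186 of 237 for 2 h and 106 of 219 for 1 h. These counts cover only genes with large ratios on both arrays. Past 2-fold in all were 2211 genes at 6 h and 776, 668 and 729 at 1, 2 and 4 h.

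Of the 8553 genes with a value on all 4 arrays, 8 lay past 2-fold the same way on each array. At 6 h these were the carbonic anhydrase gene Car1 (-0.79), Fbln2 (-1.23), Cacna1b (-1.08), Fcgr2b (-0.54), Prxl2c (-1.41), 3110082I17Rik (0.56), the mitochondrial ribosomal gene Mrps24 (0.52) and the neural transcription factor gene Pou3f4 (0.37). Mrps24, 3110082I17Rik and Pou3f4 were even over time, with an SD over the 4 arrays of 0.024, 0.045 and 0.041. All rest on 1 spot except Fcgr2b, and of its 2 spots 1 lay within 2-fold before 6 h, at -0.059, -0.18 and -0.17.

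Spots with neighbouring numbers tended to have like values at 6 h. Across spots, Spearman's correlation between a spot and the next number was 0.259 (13244 pairs) and 0.103 at a distance of 50. In 31 bins of 600 spot numbers, the median ranged from -0.14 in spots 15601 to 16200 to 0.11 in spots 1201 to 1800. The share of spots past 2-fold ranged from 15.4% in spots 1 to 600 to 37.3% in spots 7201 to 7800. The sources used here do not say where a spot number lies on the slide, and the part of position in single gene values was not tested. Once the running median over 51 spots was taken off, 1929 genes passed 2-fold.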

How the data were processed

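Two-colour arrays of CA1 RNA were analysed from the deposited log ratios, 1 array for each of 4 times. The values were taken as log10 ratios, an assumption, since the deposited table and the labels state no base, and all columns had a median of 0. The sources used here do not give the scale, centring, direction, scanner or normalization. Precision is limited by having 1 array per time.

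Exact zeros (10.0% of spots at 6 h) were read as not measured and the median of the others (-0.0054) was subtracted. GEO's platform annotation named 13738 spots with 1 gene, 52 with several and left 2491 unnamed here; the last 2 kinds were left out. Entrez identifiers of 13694 spots matched RefSeq (GRCm38.p6, names only), which changed 0 symbols.

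No test was run, since there is 1 array. Where a share is printed with an interval, it is an exact Clopper-Pearson 95% interval, and the other shares carry none. Members and the 36 gene lists were chosen with earlier results of these data known. Named genes were the 10 highest and lowest values, the 10 highest and lowest among genes with 2 or more spots all past 2-fold one way, the 10 widest spot ranges, each list's ends and its members with agreeing spots, 7 immediate early genes, and genes past 2-fold on all arrays. Members named beyond these were chosen after their values were seen. Alternatives covered threshold, log base, centring, zeros, spot summary, gene subsets, scaling and spot order. The counting code was checked on simulated data with little noise and all spots of a gene shifted alike. Such data do not resemble this array, so the check covers the code only. Python 3.11.15, pandas 2.3.3, numpy 2.4.6, scipy 1.17.1 and matplotlib 3.10.9 were used.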

Additional observations from a re-analysis of the deposited data

Results flagged for a closer look

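Among the 127 genes named by the rule, those past 2-fold at 6 h and past 2-fold the opposite way at another time were singled out. No test of the difference was run, since each time has 1 array. The genes given here are thus not all such genes. Over all genes past 2-fold at 6 h and at 1 h, 106 of 219 had the same sign. For 2 h it was 186 of 237 and for 4 h 279 of 314. Actb stood at -0.41 at 6 h and 0.78 at 1 h on 1 spot. Once a running median over 51 spots was removed, its 6 h value was -0.16. Hoxc4 stood at -1.80 (-1.22 with that median removed) against 0.31 at 1 h, on 1 spot. Ntrk2 stood at -0.67 against 0.39 at 1 h, on 1 spot. Inppl1 stood at -0.61 against 0.37 at 1 h and 0.31 at 4 h, and its 2 spots had the same sign at each of these times. Hpca stood at -0.34 against 0.40 at 4 h, again with 2 spots of like sign, and its 6 h value was -0.23 with that median removed. Cnga2 stood at 0.82 against -0.37 at 4 h, where 1 of its 2 spots was measured. Spn stood at 0.73 against -0.37 at 2 h, a mean of spots at -0.062 and -0.68, of which 1 passed 2-fold. Trhr stood at 0.68 against -1.52 at 2 h, a mean of spots at -3.10 and 0.059.

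Spots with no gene name here also held large ratios. Of 1850 measured at 6 h, 517 passed 2-fold (27.9%), 233 positive and 284 negative, against 25.1% of 12759 named spots.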

How the results depend on the processing

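The count of genes past 2-fold at 6 h moved from 2211 to 4029 at 1.5-fold, 1091 at 3-fold, 93 with base-2 logs, 438 with natural logs, 375 among genes with 2 or more spots and 1323 with the array scaled to the spread of the others. The count was 2214 without centring, 2128 with zeros kept, 2207 with the median of spots and 1929 with the running median removed. Among the 8553 genes with a value on all 4 arrays it was 1533 (17.9%). Among the 2402 genes with 2 or more spots it was 375 (15.6%, against 21.9% of all genes). Counted over 12759 named spots rather than genes, 3197 spots passed (25.1%). The positive share of 46.5% was 49.1% at 3-fold, 7.53% with base-2 logs, 40.4% with natural logs, 50.5% with each spot on its own, 64.5% among genes with 2 or more spots and 34.2% among genes on all 4 arrays. The same-sign share of 49.8% was 41.4% with both spots past 2-fold and 53.3% over all 3167 pairs of spots, which count Gapdh many times. The median absolute deviation of 0.146 was 0.126 with zeros kept, 0.125 over spots on all 4 arrays and 0.138 with the running median removed. Of 127 genes named by the rule, 0 of those past 2-fold changed sign, and 12 crossed 2-fold when the running median was removed: Actb, Hpca, Mbd3, Srsf1 and Trpv4 came within it, and Atp5l (0.31), Bub1, Cryab, Egr1, Gfap, Gucy1b1 and Nr4a1 went past it. With the median of spots Mog and Rit2 came within 2-fold and Igha (0.32) went past it. Of 36 list medians, 8 changed sign with the running median removed and 2 with the median of spots. The cause of these shifts was not tested. The log base sets every fold printed. No paired analysis was possible because each time has 1 array, and leaving out a replicate was not possible either.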
